A study of Homo sapiens with 6 samples.

Results

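A set of 10 genes that mark epithelial or mesenchymal identity was followed in C4-2 prostate cancer cells, namely KRT8, KRT18, KRT19, EPCAM and CLDN3 on the epithelial side and VIM, FN1, CDH2, ZEB1 and SNAI2 on the mesenchymal side. They were chosen by name, and all 10 were found among the 28503 lines of the authors' table, which gives FPKM, a level corrected for transcript length and sequencing depth. Of the 10, 8 reached 1 FPKM in at least 1 column and so were among the 12932 genes kept for comparison. The other two, CDH2 and ZEB1, did not.

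C4-2 is an established line derived from LNCaP, grown here in medium with 10% fetal bovine serum and used at passages 10 to 15. The labels list 6 libraries of polyadenylated RNA: vehicle, GSK126 (an inhibitor of the methyltransferase activity of EZH2), astemizole (an antihistamine reported to disturb the contact between EZH2 and EED), a lentiviral shRNA control with a scramble sequence, and lentiviral EZH2 shRNA #1 and #2. Every library came from the same line, and neither doses nor treatment times are given in the sources used here. The table holds 5 columns, with the knockdown as 1 column that names no hairpin, so each condition has 1 value and no difference below has a replicate check. GSK126 and astemizole were compared with the vehicle column, which they share, and the knockdown with the scramble column. The scramble column was also compared with vehicle, as neither perturbs EZH2. EZH2 itself stood at 26.5 FPKM with vehicle, 17.5 under GSK126 and 9.48 under astemizole, beside 24.6 for scramble shRNA and 3.35 for the knockdown. Read totals are not in the table, so no counting interval can be given. By the spacing of low values, 1 read weighed 0.949 (GSK126), 1.05 (astemizole) and 0.856 (scramble shRNA) times as much as in the vehicle column.

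Simple epithelia such as the luminal layer of the prostate build their intermediate filaments from a type II keratin, KRT8, paired with a type I keratin, KRT18 or KRT19. They hold together through adhesion molecules such as EPCAM and E-cadherin, and seal the space between cells with claudins. In an epithelial-mesenchymal transition, zinc finger repressors such as ZEB1 and SNAI2 (Slug) bind E-box sequences and lower E-cadherin, while the filament protein vimentin (VIM), the matrix glycoprotein fibronectin (FN1) and N-cadherin (CDH2) rise. EZH2 has been reported to take part in the silencing of E-cadherin, which is why identity markers are of interest when EZH2 is inhibited or depleted.

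C4-2 cells had a largely luminal marker pattern in all 5 columns, high in KRT18, KRT8, CLDN3 and EPCAM. FN1 was intermediate, and the mesenchymal repressors were low or near 0. KRT19, also an epithelial member, departed from this pattern and was low, at 2.87 FPKM or less. KRT18 was the highest member in every column, followed by KRT8, CLDN3, EPCAM, FN1 and VIM in that order. KRT19 came next and SNAI2 after it, except with astemizole, where SNAI2 stood above KRT19, and ZEB1 and CDH2 were last throughout. Since FPKM is scaled to transcript length, these levels can be set side by side between genes. In the vehicle column KRT18 lay above 98.4% of the genes kept, KRT8 above 97.1%, CLDN3 above 94.5%, EPCAM above 92.6%, FN1 above 76.9%, VIM above 23.3%, KRT19 above 20.8% and SNAI2 above 6.12%. The summed FPKM of the epithelial members was 26.9 times that of the mesenchymal members with vehicle and 23.0 times with scramble shRNA. The same quotient was 17.4 with GSK126, 17.3 with astemizole and 16.7 in the knockdown column. FN1 made up 88.5% to 91.9% of the mesenchymal sum. With astemizole both sums moved, the epithelial one from 1017 FPKM with vehicle to 800.7 and the mesenchymal one from 37.9 to 46.2. With GSK126 the sums were 970.7 and 55.9 FPKM. In the knockdown the epithelial sum was higher than with scramble shRNA, at 1001 against 922.4 FPKM. KRT8 and KRT18 together held most of it, at 813.9 against 710.4 FPKM. EPCAM was also higher than with scramble shRNA, but CLDN3 and KRT19 were lower. The lower quotient in the knockdown came from the mesenchymal sum, at 60.0 against 40.2 FPKM.

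**Figure D1:**
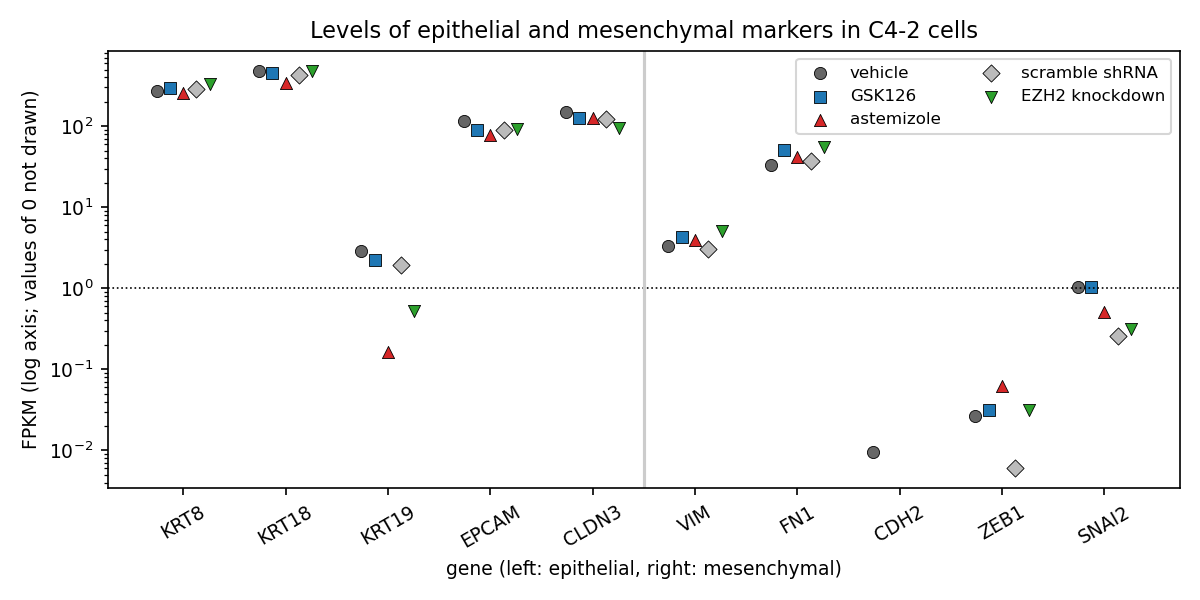
FPKM of each of the 10 genes (log axis) in the 5 columns of the table, 1 point per column; the dotted line marks 1 FPKM, and values of 0 are not drawn. KRT8, KRT18, EPCAM and CLDN3 stay between 78.7 and 485 FPKM, KRT19 falls from 2.87 with vehicle to 0.164 with astemizole, and CDH2 has a point for vehicle alone.

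The labelled cell type was checked against markers of luminal cells and of other cell types. Luminal markers (KRT8, KRT18, KRT19, EPCAM and CDH1) summed to between 758 and 947 FPKM, mostly through KRT8 and KRT18. All 5 reached 1 FPKM with vehicle, GSK126 and scramble shRNA. With astemizole and in the knockdown 4 did, as KRT19 was below it. KRT19 stood at 2.87 FPKM at most. Basal markers summed to 8.27 to 13.2 FPKM, with 3 of 10 (ITGA6, KRT14 and ITGB4) reaching 1 FPKM in some column. ITGA6 was the highest of the 10 in every column, at 5.90 to 8.44 FPKM, while KRT17 was listed at 0 in all columns. Fibroblast markers summed to 2.19 to 4.49 FPKM and endothelial markers to 0.551 to 0.974. Blood cell markers summed to 0.262 to 1.28 FPKM except with GSK126, where they reached 8.09 through LYZ at 7.57 FPKM. The GSK126 library also stood apart in genes expressed by liver, at a summed 218 FPKM against 26.4 with vehicle and 2.38 to 6.21 in the other columns.

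RefSeq promoter sequences (GRCh38.p14) are shown for CLDN3, FN1 and VIM, the 3 members whose log2 ratios below had the same sign against the matched control in all 3 perturbations and that have a single entry in the sequence table. KRT19, which also kept 1 sign, has no entry there, and neither do KRT18, EPCAM and SNAI2. Each run gives the 250 bases before the listed transcription start, 5′ to 3′ on the strand of the gene. Capitals mark GC boxes, the letters GGGCGG read on either strand, with overlapping matches counted. CLDN3 lies on the minus strand at chr7:73770271-73770520, FN1 on the minus strand at chr2:215436069-215436318 and VIM on the plus strand at chr10:17227991-17228240.
CLDN3: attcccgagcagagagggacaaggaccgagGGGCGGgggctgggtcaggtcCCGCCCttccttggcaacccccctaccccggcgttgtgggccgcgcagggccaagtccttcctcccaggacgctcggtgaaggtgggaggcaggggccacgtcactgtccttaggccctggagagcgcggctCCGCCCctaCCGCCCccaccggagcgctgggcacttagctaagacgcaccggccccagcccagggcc
FN1: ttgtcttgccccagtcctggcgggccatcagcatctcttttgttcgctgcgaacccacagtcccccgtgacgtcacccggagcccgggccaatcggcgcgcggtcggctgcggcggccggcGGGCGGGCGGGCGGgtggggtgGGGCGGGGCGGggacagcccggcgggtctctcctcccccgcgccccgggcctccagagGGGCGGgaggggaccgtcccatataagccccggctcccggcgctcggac
VIM: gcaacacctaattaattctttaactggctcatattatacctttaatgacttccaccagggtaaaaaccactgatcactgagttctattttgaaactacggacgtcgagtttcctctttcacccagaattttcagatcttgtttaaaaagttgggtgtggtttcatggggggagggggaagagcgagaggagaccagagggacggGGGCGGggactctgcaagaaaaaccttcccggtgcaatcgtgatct
The FN1 window holds 6 GC boxes, the CLDN3 window 4 and the VIM window 1, and 42.6% of the 34788 distinct windows of this length in the table hold at least 1. None of the 3 windows holds the E-box letters CANNTG, which 61.8% of all windows hold on either strand, nor therefore CACCTG, the form preferred by the ZEB and SNAI repressors (17.5% of all windows). These are matches of letters in a short window and say nothing of binding.

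Beginning with the keratins, the major filament pair was abundant in every column, and of the 8 kept members KRT8 varied least. In a bulk lysate fewer cells of a type and less RNA per cell cannot be told apart. KRT8 stood at 269 FPKM with vehicle and 285 with scramble shRNA as controls, 293 under GSK126, 255 under astemizole and 329 on EZH2 knockdown. The log2 ratio of FPKM + 1 to the matched control, the scale used for all ratios here, was 0.13 for GSK126, -0.08 for astemizole and 0.21 for the knockdown. In the order of the table's columns, which run vehicle, GSK126, astemizole, scramble shRNA, knockdown, KRT18 stood at 480, 457, 342, 425 and 485 FPKM. Its log2 ratio was -0.07 for GSK126, -0.48 for astemizole and 0.19 for the knockdown, and the astemizole column was the lowest of the 5. The sign for KRT18 with GSK126 turned positive, at 0.14 at most, after rescaling to TPM or against the scramble column. The quotient of KRT18 to KRT8 was 1.78 in the vehicle column, 1.56 and 1.34 after GSK126 and astemizole, 1.49 in the scramble column and 1.47 in that of the knockdown. The table also lists 1 pseudogene each of KRT8, KRT18 and KRT19 (KRT8P41, KRT18P55 and KRT19P2), at 0.0463 FPKM or less. The sources used here do not say how reads shared between a keratin gene and its many copies were assigned, so the keratin levels are uncertain to that extent.

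KRT19, the smallest keratin, was the one member past 2-fold in any of the 3 perturbations. It stood at 2.87 FPKM with vehicle, 2.24 under GSK126 and 0.164 under astemizole, beside 1.96 for scramble shRNA and 0.530 for the knockdown. Astemizole and the knockdown thus held the lowest levels, below both controls, and GSK126 lay between the controls. KRT19 was kept only through the vehicle, GSK126 and scramble columns, where it is higher. The log2 ratio was -1.73 for astemizole, lower than all but 1.77% of the genes kept, -0.95 for the knockdown and -0.26 for GSK126. Scramble shRNA against vehicle gave -0.38. On the plain FPKM scale KRT19 was 17.5-fold lower with astemizole and 3.70-fold lower in the knockdown column, which the added 1 FPKM shrinks because the gene is low. With a pseudocount of 0.1 FPKM the knockdown ratio passed 2-fold, at -1.71. It also did so against the vehicle column, where KRT19 is higher than with scramble shRNA, at -1.34. The level with astemizole is so low that few reads may stand behind it.

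By distance between log2(FPKM + 1) profiles centred on their mean over the 5 columns, the genes nearest to KRT19 among 12147 with a known symbol were KLK1, CCNF and IL17C. KLK1, a kallikrein protease gene, lay at a distance of 0.25, with 5.58 FPKM in the vehicle column, 3.68 under GSK126, 0.810 under astemizole, 3.12 in the scramble column and 1.12 in that of the knockdown. CCNF, which encodes cyclin F, lay at 0.30 and IL17C, an epithelial cytokine gene, at 0.31. All 3 had their lowest level with astemizole and their next lowest in the knockdown column, as KRT19 has. They were chosen for nearness to KRT19 in these same columns, so the shared order follows from the choice. No other kept member spanned 1 or more on this scale, so no neighbours are named for them.

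The junction and adhesion members were lower than vehicle by less than 2-fold with each drug; against the scramble column EPCAM with astemizole alone was lower. EPCAM, a surface adhesion molecule of epithelial cells, stood at 115 FPKM with vehicle and 88.9 with scramble shRNA as controls, 90.8 under GSK126, 78.7 under astemizole and 91.9 on EZH2 knockdown. Vehicle was the highest of the 5, and the 4 others lay close together. The log2 ratios were -0.33 for GSK126, -0.54 for astemizole and 0.05 for the knockdown, while scramble shRNA against vehicle gave -0.36. Against the scramble column the GSK126 ratio was 0.03 and the astemizole ratio -0.17.

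CLDN3, a sealing claudin of tight junctions, stood at 151, 127, 124, 121 and 94.3 FPKM in column order. The knockdown column was the lowest and vehicle the highest. The log2 ratios to the matched control were -0.24, -0.28 and -0.36, and that of scramble shRNA to vehicle was -0.32. Against the scramble column the ratios for GSK126 and astemizole were 0.07 and 0.04. For EPCAM and CLDN3 the gap between the controls was thus about as large as the gap from vehicle to GSK126.

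FN1 and VIM were higher than both controls in all 3 perturbed columns, by less than 2-fold. FN1, a matrix glycoprotein that binds integrins, stood at 33.5 FPKM in the vehicle column, 50.6 and 41.7 after GSK126 and astemizole, 36.9 in the scramble column and 54.6 in that of the knockdown. Its log2 ratio was 0.58 for GSK126, 0.31 for astemizole and 0.55 for the knockdown, the last above 90.7% of the genes kept. Between the controls it was 0.14. VIM, the intermediate filament protein of mesenchymal cells, stood at 3.28, 4.26, 3.90, 3.01 and 5.05 FPKM in column order. The log2 ratio of VIM was 0.30 for GSK126, 0.20 for astemizole and 0.59 for the knockdown, the last above 92.1% of the genes kept. Each of these signs held after TPM rescaling and after centring on the median gene. The pseudocount and the filter cannot change the sign of a ratio. Levels above both controls fix the sign for the other control column. Of all genes kept, 15.1% had their 3 perturbed columns above both controls and 16.7% had them below, so this arrangement is common.

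Liver, which secretes plasma fibronectin, is another source of FN1 transcripts, and liver genes moved with the GSK126 library. In a list of 20 liver genes written after the data were seen, 16 reached 1 FPKM with GSK126, 8 with vehicle, 2 under astemizole, and 1 each in the scramble and knockdown columns. Their sums were 26.4, 218, 6.21, 2.38 and 3.45 FPKM in column order, and albumin (ALB) stood at 4.18, 28.7, 0.133, 0.119 and 0.124 FPKM. The part of these transcripts in the FN1 level with GSK126 was not tested. In the knockdown column FN1 was 1.48 times its control, and the summed liver level was 3.45 FPKM against 2.38 with scramble shRNA. With astemizole FN1 stood at 41.7 FPKM against 33.5 with vehicle, and the liver sum at 6.21 against 26.4. The part of liver transcripts in the FN1 level of these columns was not tested either. For VIM in the knockdown, the fibroblast marker sum was 4.35 FPKM against 2.19 with scramble shRNA and 4.34 with vehicle, with 2 of 9 markers reaching 1 FPKM in the knockdown column and 0 of 9 with scramble shRNA. The 2 that reached it were COL1A1, at 1.89 FPKM against 0.938 with scramble shRNA, and ACTA2, at 1.40 against 0.664. With vehicle COL1A1 stood at 1.80 and ACTA2 at 1.41 FPKM. COL3A1 was at 0.361 against 0.0192 FPKM with scramble shRNA, LUM at 0.173 against 0.0905 and PDGFRB at 0.390 against 0.356. PDGFRA was at 0.0869 FPKM where scramble shRNA is listed at 0. FAP went the other way, at 0.0407 FPKM against 0.127. COL1A2 was at 0.00412 FPKM in the knockdown column and DCN was listed at 0 there. These genes were named after their values were seen. The part of fibroblast transcripts in the VIM ratio was not tested.

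**Figure D2:**
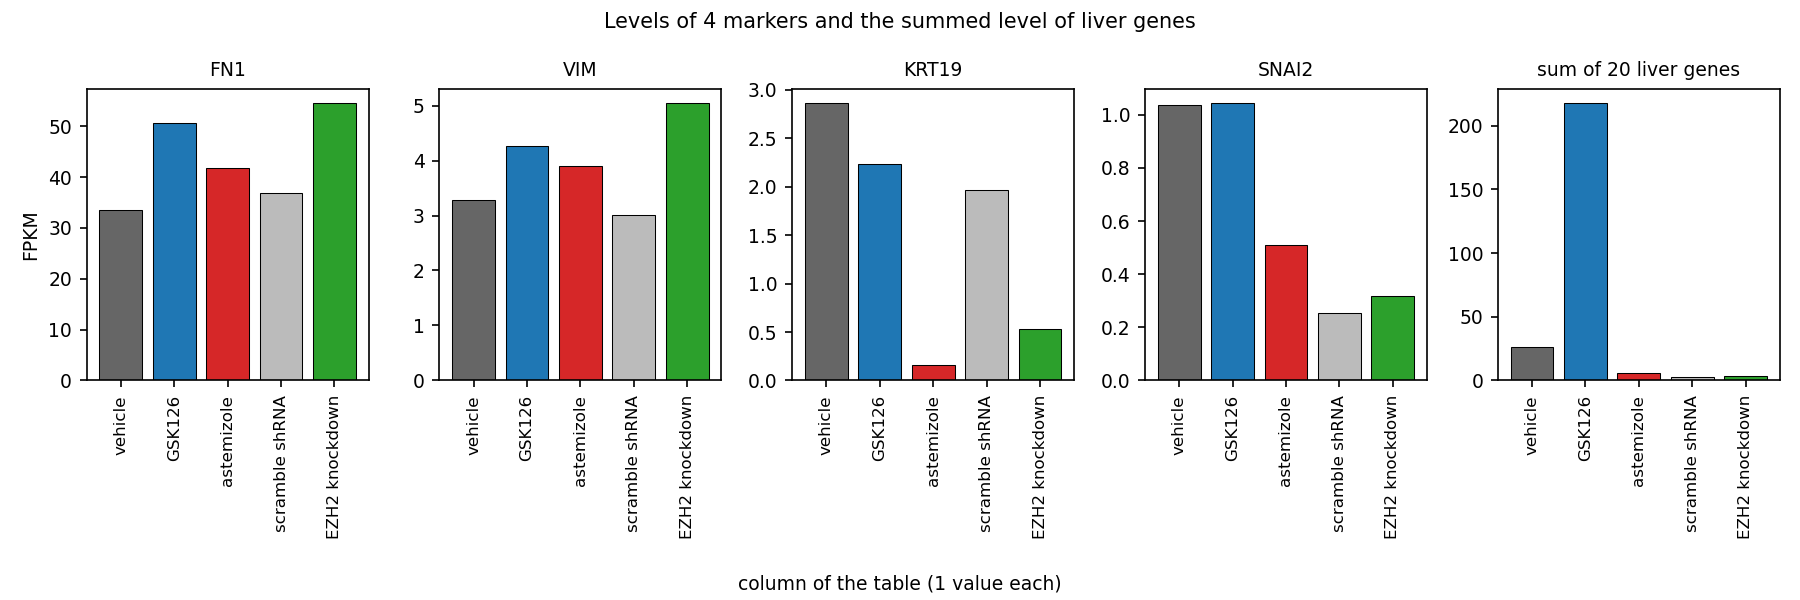
FPKM of FN1, VIM, KRT19 and SNAI2, and the summed FPKM of 20 liver genes, in each of the 5 columns of the table; each bar is 1 value and each panel has its own linear axis from 0. FN1 and VIM are higher in the 3 perturbed columns than in both controls, KRT19 is lowest with astemizole, SNAI2 is lower with scramble shRNA than with vehicle, and the liver sum is high with GSK126.

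N-cadherin and ZEB1 were near or at 0 in all columns. CDH2 was at 0.00951 FPKM with vehicle and listed at 0 in the other 4 columns. A 0 in such a table may be a failed estimate, and no fold is given. ZEB1 stood at 0.0262 FPKM with vehicle, 0.0310 under GSK126 and 0.0621 under astemizole, beside 0.00604 for scramble shRNA and 0.0313 for the knockdown. At these levels no difference between columns can be read. ZEB1-AS1, a divergent noncoding transcript beside ZEB1, stood at 0.805, 1.36, 0.998, 1.26 and 0.697 FPKM in column order, above ZEB1 in every column, and the sources used here do not say whether the counting used strand.

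SNAI2 differed more between the controls than between any perturbation and its matched control. It stood at 1.04 FPKM in both the vehicle and the GSK126 column, 0.511 under astemizole, 0.254 in the scramble column and 0.318 in that of the knockdown. Scramble shRNA and the knockdown, which both received lentivirus, held the lowest levels. The log2 ratio of scramble shRNA to vehicle was -0.70, lower than all but 2.36% of the genes kept, while the ratios to the matched control were 0.01 for GSK126, -0.43 for astemizole and 0.07 for the knockdown. With the control columns exchanged these 3 ratios became 0.70, 0.27 and -0.63, so the direction of SNAI2 with astemizole and in the knockdown depends on the control. Virus and the lack of it cannot be told apart from any other difference between the controls.

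Counted over the 8 members kept, 0 were at least 2-fold higher or lower with GSK126, where 2.00% of all genes kept were (1.05% higher and 0.951% lower). With astemizole 1 member (KRT19) was at least 2-fold lower and 0 higher, against 5.49% of all genes lower and 3.53% higher (9.02% in either direction). In the knockdown 0 members were past 2-fold, against 7.04% of all genes (1.93% higher and 5.11% lower). Between scramble shRNA and vehicle 0 were, against 1.02% (0.170% higher and 0.851% lower). With 8 genes, a count of 0 or 1 does not set the members apart from these shares. KRT19 was below 1 FPKM with astemizole and in the knockdown, and was kept through the other columns alone. The median log2 ratio of the 5 epithelial members was -0.24 with GSK126, -0.48 with astemizole and 0.05 in the knockdown, beside medians over all genes of -0.04, -0.06 and 0.03. Between the controls the epithelial median was -0.32, beside -0.11 for all genes. For the 3 mesenchymal members kept, the medians were 0.30, 0.20 and 0.55, and -0.09 between the controls, SNAI2 being kept only through the vehicle and GSK126 columns.

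**Figure D3:**
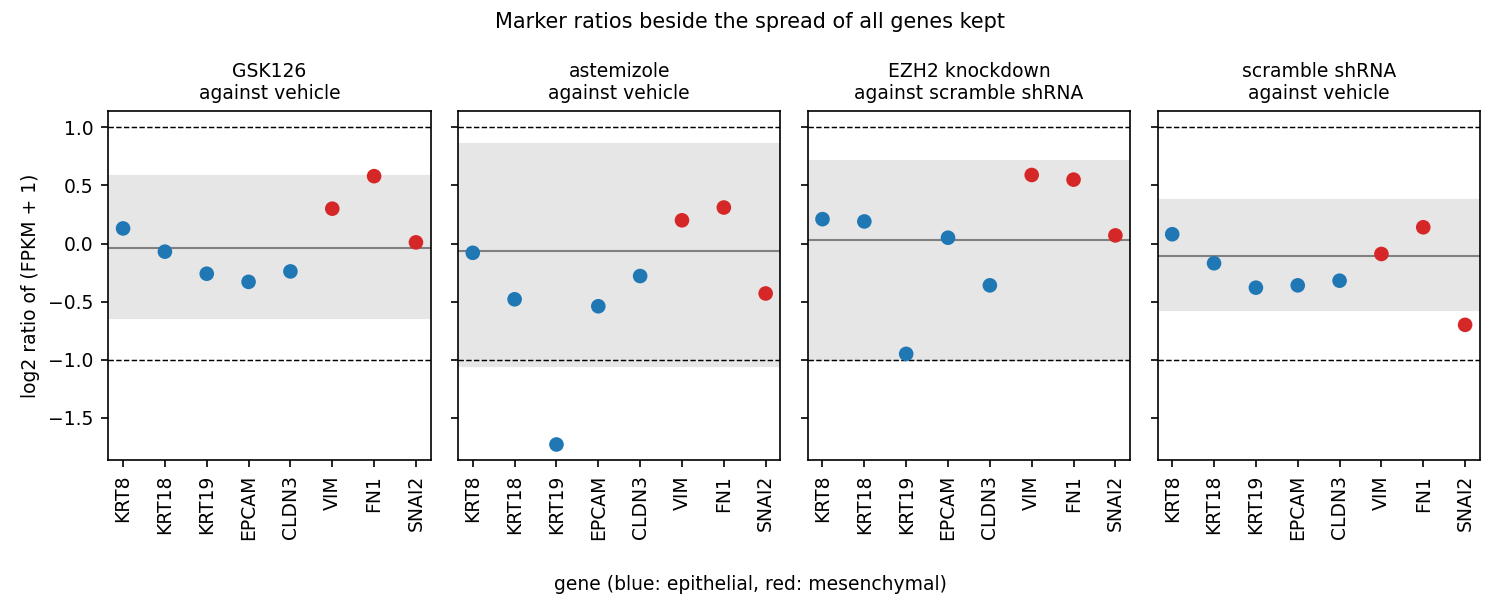
The log2 ratio of FPKM + 1 for the 8 members kept (blue epithelial, red mesenchymal) in each comparison, 1 value per gene; the grey band spans the 5th to 95th percentile of all 12932 genes kept, the grey line is their median and the dashed lines mark 2-fold. KRT19 at -1.73 with astemizole lies past 2-fold, FN1 at 0.58 with GSK126 at the upper edge of the band, and SNAI2 at -0.70 below the band between the controls.

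Further genes of epithelial structure were examined by list. Of 17 genes of other simple keratins, desmosomes and plakins, 11 were kept and 0 passed 2-fold in any comparison, with medians of 0.04 for GSK126, -0.02 for astemizole and -0.05 for the knockdown. Of 25 adherens and tight junction genes, 24 were kept and 0 passed 2-fold, with medians of 0.13, 0.08 and 0.13. The following genes of this list were named after their values were seen. CDH1, which encodes E-cadherin, stood at 54.6 FPKM with vehicle and 75.4 with scramble shRNA as controls, 63.1 under GSK126, 82.0 under astemizole and 41.0 on EZH2 knockdown. The knockdown was the lowest, at a log2 ratio of -0.86, and astemizole the highest, at 0.58. Between the controls the CDH1 ratio was 0.46, so the size of both ratios depends on the control. CTNND1, whose product p120 catenin stabilises cadherins at the membrane, had 72.5 FPKM in the knockdown column against 35.9 with scramble shRNA, a log2 ratio of 0.99.

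Among 16 epithelial surface and secreted genes, all kept, 2 were at least 2-fold higher with GSK126, 2 higher and 1 lower with astemizole, and 1 higher in the knockdown. Of all genes kept, 1.05% were higher with GSK126, 3.53% higher and 5.49% lower with astemizole, and 1.93% higher in the knockdown. Each list count is of 1 or 2 genes and has no test. TMC4, a channel-like membrane protein gene, was past 2-fold in all 3 comparisons, at 8.08 FPKM in the vehicle column, 17.6 and 24.2 after GSK126 and astemizole, 12.1 in the scramble column and 26.8 in that of the knockdown. CD24, a surface glycoprotein gene, had 1.13 with GSK126. The membrane serine protease gene PRSS8 had 1.23 with astemizole, and C1orf106, which encodes a junction-associated protein, had -1.19.

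The epithelial transcription and splicing factors, 12 of 13 kept, moved in both directions within the ETS family. EHF, an ETS factor of epithelial cells, stood at 209 FPKM with vehicle, 186 under GSK126 and 100.5 under astemizole, beside 227 for scramble shRNA and 113 for the knockdown. Its log2 ratio was -1.05 with astemizole, and in the knockdown it lay just inside the 2-fold mark on the FPKM + 1 scale and was not counted. SPDEF, the prostate-derived ETS factor, had -1.07 with astemizole and -0.77 in the knockdown. ELF3, another epithelial ETS factor, went the other way, at 6.98, 14.0, 20.02, 3.75 and 12.1 FPKM in column order. The ratio of ELF3 was 0.91 with GSK126, 1.40 with astemizole and 1.46 in the knockdown, and -0.75 between the controls. The medians of this list were -0.04, -0.13 and 0.06.

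Of 15 genes listed as transcription factors of the epithelial-mesenchymal transition and their partners, 8 were kept. This list, ID genes included, was chosen with earlier results of these data known. Its counts are therefore untested and do not set the list apart from the shares beside them. With astemizole 4 were at least 2-fold higher and 0 lower, where 3.53% of all genes kept were higher and 5.49% lower. In the knockdown 4 were higher and 0 lower, beside 1.93% and 5.11% of all genes. With GSK126 0 were higher and 1 lower, beside 1.05% and 0.951%, and between the controls 0 were higher and 2 lower, beside 0.170% and 0.851%. Most of those past 2-fold were ID genes, which encode dominant negative partners of basic helix-loop-helix factors and do not themselves bind DNA. ID1 stood at 10.98 FPKM with vehicle and 4.22 with scramble shRNA as controls, 4.49 under GSK126, 53.5 under astemizole and 36.9 on EZH2 knockdown. The ratios of ID1, ID2 and ID3 were 2.19, 2.56 and 2.02 with astemizole and 2.86, 1.52 and 2.96 in the knockdown. Between the controls they were -1.20, -0.25 and -1.04, and ID1 had -1.13 with GSK126. The developmental factor SOX9 had 1.16 in the knockdown and -0.40 between the controls. TCF4, a basic helix-loop-helix factor, had 1.17 with astemizole, -0.70 in the knockdown and 0.65 between the controls. At 2.46 FPKM its knockdown level was close to the 2.58 of vehicle, against 4.62 with scramble shRNA. TWIST2 and FOXC2 were listed at 0 in all columns, and ZEB2 reached 0.0411 FPKM at most. SNAI1 (Snail), named after its values were seen like TWIST2, FOXC2 and ZEB2, stood at 2.22, 1.21, 1.02, 2.05 and 0.944 FPKM in column order, and was below its matched control in each perturbation, with ratios of -0.54, -0.67 and -0.65.

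The mesenchymal cytoskeleton and surface genes, 12 of 23 kept, had 0 members past 2-fold, with medians of 0.19, -0.14 and -0.06. CALD1, which encodes the actin-binding protein caldesmon and was named after its values were seen, stood at 131 FPKM in the vehicle column, 185 and 228 after GSK126 and astemizole, 146 in the scramble column and 251 in that of the knockdown. Like FN1 and VIM it was higher in the 3 perturbed columns than in both controls, as were 15.1% of all genes kept. Of the 12 genes of this list, 4 were below the matched control with GSK126, 9 with astemizole and 7 in the knockdown.

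Of 30 matrix and matrix-remodelling genes only 10 were kept. With GSK126 1 was at least 2-fold higher, with astemizole 2 were lower, and in the knockdown 2 were higher and 1 lower. The shares over all genes kept were 1.05% higher with GSK126, 5.49% lower with astemizole, and 1.93% higher and 5.11% lower in the knockdown. These list counts, too, are of 1 or 2 genes each and untested. THBS1, which encodes the matrix glycoprotein thrombospondin 1, stood at 19.3, 46.3, 19.1, 9.31 and 51.8 FPKM in column order, with ratios of 1.22 for GSK126, -0.01 for astemizole and 2.36 for the knockdown. The controls differed by -0.98 for this gene. COL6A1, a chain of collagen VI, had 1.16 in the knockdown. FBLN1, which encodes the matrix protein fibulin 1, had -1.65 with astemizole and -1.22 in the knockdown, and the crosslinking enzyme gene LOX had -1.04 with astemizole. The medians were 0.14, -0.10 and 0.40, and -0.40 between the controls.

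**Figure D4:**
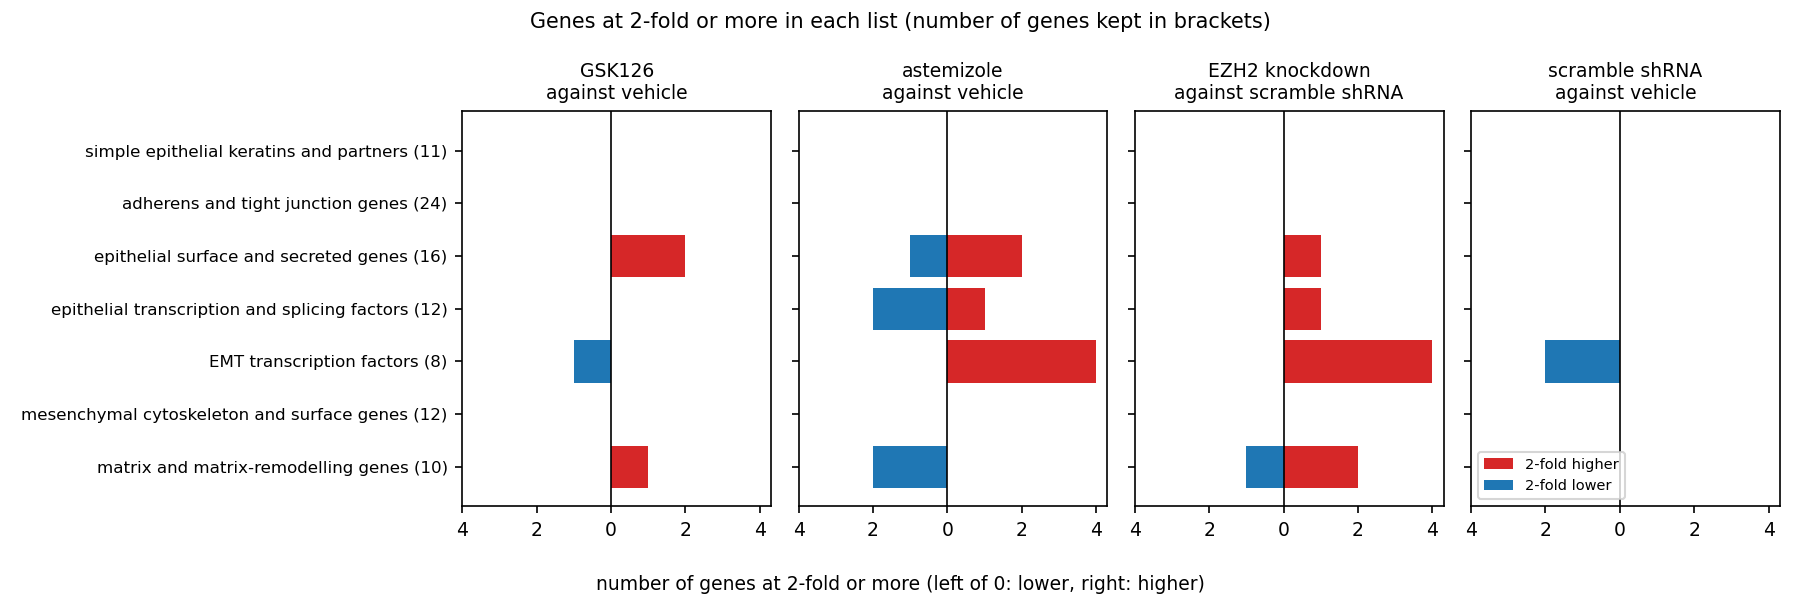
Number of genes at 2-fold or more in 7 lists (rows, with the number of genes kept in brackets) for the 4 comparisons, higher to the right of 0 in red and lower to the left in blue. The keratin partner, junction and mesenchymal cytoskeleton lists have no bar, and the longest bars are 4 genes of the list of transition factors, higher with astemizole and in the knockdown.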

How the data were processed

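Polyadenylated RNA of C4-2 cells was sequenced, and the authors deposited 1 table of FPKM values with 5 columns. TopHat2 and Cuffdiff on hg19 were used per the submitters' processing notes, which carry no versions. The sources used here do not give the annotation, the normalization options or the way the knockdown column was made from 2 hairpin libraries. From the 28503 lines, 27 names turned into dates and 1683 short noncoding RNA genes were left out, and 12932 genes that reached 1 FPKM in any column were kept. Ratios are log2 of (FPKM + 1) in 1 column over (FPKM + 1) in its control, computed from the deposited values with pandas 2.3.3, and 2-fold was the mark for counting. With 1 value per condition there is no test, p-value or standard deviation. The counting was tested on simulated data. The alternatives were a pseudocount of 0.1 FPKM, no filter, both together, TPM rescaling, centring on the median gene, a 1.5-fold mark and the other control column. The members and lists were chosen with earlier results of these data known, and the liver list after its values were seen. Named were the members, EZH2, up to 4 genes per list and comparison with the largest ratios past 2-fold and the 3 nearest profiles, with exceptions stated beside them. No gene coordinates are printed, since the reference is of another build than hg19. The promoter windows carry the build of their own table. The values of 1 further list gene are not reported here.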

Additional observations from a re-analysis of the deposited data

How the results depend on the processing

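No paired analysis was possible because each condition has 1 value. The count of members past 2-fold stayed at 0 with GSK126 and at 1 with astemizole under every alternative run. In the knockdown it was 1 in place of 0 with a pseudocount of 0.1 FPKM, with or without the filter, after TPM rescaling and against vehicle (KRT19 each time), and 2 at 1.5-fold (KRT19 and VIM). Between the controls it was 1 in place of 0 with that pseudocount, with or without the filter, and at 1.5-fold (SNAI2). Of 184 ratios of members recomputed, 175 moved by less than 0.5 on the log2 scale, 9 moved further and 0 past 2-fold changed sign. The filter cannot alter a gene's own ratio, so the values without it repeat those with it and inflate these counts. Ratios short of 2-fold did change sign, among them EPCAM and CLDN3 with GSK126 against the scramble column. TPM rescaling moved the median of all genes with GSK126 from -0.04 to 0.16 and between the controls from -0.11 to 0.12. Genes past 2-fold with GSK126 were then 300 higher and 73 lower, in place of 136 and 123, and 197 and 51 against the scramble column. For all genes, the shares past 2-fold with the pseudocount of 0.1 FPKM were 4.69% with GSK126, 13.7% with astemizole, 11.5% in the knockdown and 2.94% between the controls. Depth limits KRT19, SNAI2, ZEB1 and CDH2 most, since their levels are low and no read totals are known.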
